A study of Mus musculus with 22 samples.

Results

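Transcript abundance in the kidney of 6 db/db mice was compared with that of 5 db/m mice, gene by gene. db/db mice carry a mutated leptin receptor gene (Lepr) on both chromosomes, overeat, and become obese and diabetic, which makes them a common model of type 2 diabetes with nephropathy. The db/m mice are heterozygous for the same mutation and stay lean, so both groups carry the mutated allele. All animals were male per the study's methods, which name no treatment for this comparison, and neither the strain background nor the age at collection is given in the sources used here. The study asked which transcripts change in diabetic kidney together with N4-acetylcytidine (ac4C), a modified base of mRNA, and it sequenced 22 libraries. The 11 libraries described here are the RNA-seq libraries made from mRNA fragments that did not pass through the ac4C antibody (called input in the deposited table), 1 per animal. Reads were counted only inside ac4C peaks, so a gene is measured only where it has a peak. Of the 9857 peaks, the peak with the most input reads summed over the 11 libraries was taken for each gene, which gave 4909 genes, all the gene names in the table. Lepr, and the injury markers Havcr1 and Lcn2, had no peak and were not analysed here, so the genotypes could not be checked by the mutated gene. The kidney label was checked with cell type markers. The 14 markers of the proximal tubule summed to at least 9190 CPM (counts per 1000000 reads in peaks) in each library, whereas 8 lung markers summed to at most 1.71 CPM and the adrenal marker Star to at most 0.602 CPM.

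The proximal tubule makes up most of the kidney cortex. It reabsorbs glucose, amino acids and phosphate, secretes organic anions and cations, makes glucose, and runs mainly on fatty acid oxidation. In mice its transcripts also differ between males and females, since androgens induce a set of transporters and enzymes there. The nuclear receptor PPARA, which is activated by fatty acids, induces the genes of fatty acid oxidation, while glucocorticoids, glucagon and cyclic AMP induce gluconeogenesis.

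The input libraries held 3151035 to 3352535 reads in peaks, of which 1452383 to 1581745 fell in the peaks that stand for a gene. Levels are given as CPM after TMM scaling of the libraries, and levels of different genes are not compared. Where a library has 0 reads of a gene, its level may still be as high as that of 3 reads, 0.857 to 0.981 CPM depending on the library, counting error alone. Principal component 1 of the libraries (51% of the variance) separated the genotypes. Animal 6 of the db/db mice had the lowest db/db value on it, 0.02, beside 0.24 to 0.42 in db/db animals 1 to 5 and -0.41 to -0.25 in db/m mice. It was also the only library whose median Spearman correlation was higher with the other genotype (0.975) than with its own (0.969), and its label could not be checked by Lepr. On component 2 (20.6%), db/m animal 2 (-0.60) and db/db animal 3 (-0.48) stood apart from the rest. Results that moved by over 1.5 times or lost their call without one of these animals are given with and without it.

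Of the 4909 genes, 531 (10.8%) were called, of which 257 (5.24%) were upregulated in db/db mice and 274 (5.58%) downregulated, at an adjusted p under 0.05 by the quasi-likelihood test of edgeR, adjusted over all peaks by the Benjamini-Hochberg method. "Rose" and "fell" are used below for these calls only. Without TMM scaling the split was 358 up and 226 down. A called change over 2-fold was found in 210 genes (4.28%), 105 rising and 105 falling (2.14% each). Among the 2953 genes with a mean of 10 reads or more, 484 (16.4%) were called, 226 rising (7.65%) and 258 falling (8.74%), and the other 1956 genes were shallower. The median log2 fold change of all genes was -0.01. The genotypes did not overlap in 380 genes (7.74%). In 166 of them (3.38% of all genes) every db/db animal was above every db/m animal, and in 214 genes (4.36%) every db/db animal was below. With db/db animal 6 and db/m animal 2 both left out, 343 genes rose and 404 fell.

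**Figure D1:**
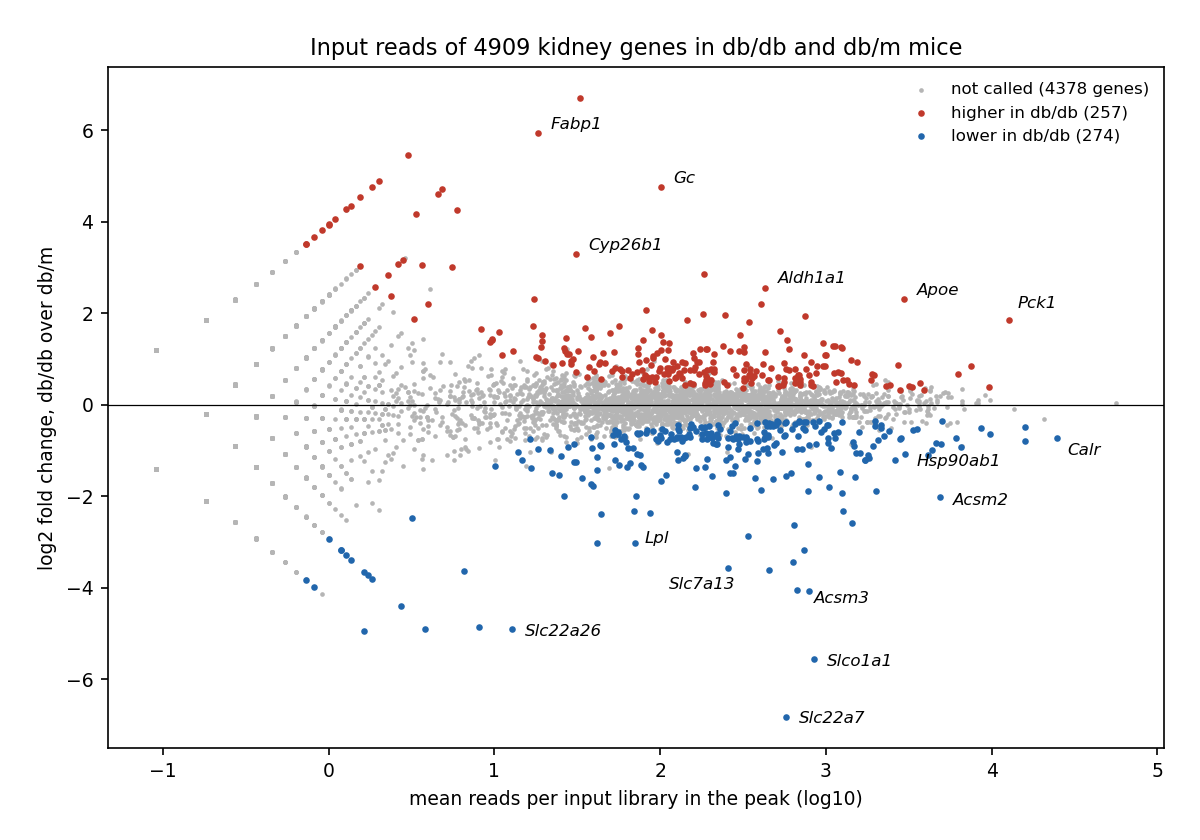
Log2 fold change of db/db over db/m (y axis) against the mean reads per input library in the peak of a gene (x axis, log10), with 1 point per gene. Red points are the 257 genes that rose, blue points the 274 that fell and grey points the 4378 that were not called, and the largest falls of well-measured genes, Slc22a7 and Slco1a1, lie below -5 on the y axis.

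The 12 largest falls and 12 largest rises were taken only from genes whose genotypes did not overlap, so that separation was set by the choice. Of the 12 largest falls, 7 were in transporters and enzymes that male mice express in the kidney under androgen control. Of 19 genes listed as androgen-induced or male-higher in mouse kidney, 9 were measured, and all 9 fell by more than 2-fold, against 2.14% of all genes that fell by as much. Their median log2 fold change was -3.43. In bulk kidney, fewer cells of a type and less RNA per cell cannot be told apart, which touches this and the later groups. The summed level of the 9 genes was 277 to 766 CPM in db/db mice and 2856 to 3761 CPM in db/m mice. Genes known as higher in females were not measured, so the opposite direction could not be read. The count stayed at 9 in each fit that left out 1 animal.

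Slco1a1 encodes an organic anion transporter of the brush border that is abundant in male kidney. Its peak lies on chromosome 6 from 141907729 to 141907849 (GRCm38), inside the bounds of another annotated gene, Gm30843, so reads of the 2 genes cannot be told apart. Slco1a1 stood at 465, 647, 560, 520 and 713 CPM in db/m animals 1 to 5 and at 0.301, 4.5, 2.28, 8.78, 1.26 and 56.1 CPM in db/db animals 1 to 6. Animal 6 was thus the highest of the db/db mice, still far below every db/m mouse. The log2 fold change was -5.57 (SE 0.66, adjusted p = 1.38e-05, edgeR), and it was -7.40 without that animal.

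Slc7a13, which encodes a transporter of aspartate, glutamate and cystine in the last segment of the proximal tubule, was also highest in animal 6 among the db/db mice. It stood at 189 to 341 CPM in db/m mice (median 289), at 2.21 to 11.7 CPM in db/db animals 1 to 5, and at 106 CPM in db/db animal 6. Its log2 fold change was -3.61 (SE 0.63, adjusted p = 0.000615, edgeR) and -5.32 without animal 6. Odc1, the rate-limiting enzyme of polyamine synthesis and a classical androgen-induced kidney transcript, fell 7.28-fold, from 203 ± 62.5 CPM (SD, n = 5) to 27.8 ± 13.3 CPM (SD, n = 6). Animal 6 was again the highest db/db mouse, at 54.3 CPM, and the lowest db/m mouse had 121 CPM.

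Enzymes of steroid and drug metabolism made up most of the rest of the androgen list. Cyp2j13, a cytochrome P450, fell 9-fold, from 453 ± 47 to 50.3 ± 52.6 CPM, with 155 CPM in animal 6 and at most 52.7 CPM in the other db/db mice. Its log2 fold change was -3.17 with animal 6 and -3.94 without it. Ugt2b37 and Ugt2b38, which couple glucuronic acid to steroids and drugs, fell 11.9-fold and 10.8-fold. Ugt2b37 stood at 40.9 CPM in animal 6 and at 1.9 to 17.1 CPM in the other db/db mice, and its log2 fold change was -3.57 with animal 6 and -4.29 without it. The 2 are closely related neighbours on chromosome 5, so reads may be split between them. Acsm3, a medium-chain acyl-CoA synthetase, fell 16.7-fold, from 438 ± 51.9 to 26.2 ± 14.4 CPM. Its peak on chromosome 7 from 119784302 to 119784451 overlaps that of Eri2, an exonuclease gene on the other strand, whose log2 fold change was -4.08 beside -4.06 for Acsm3. The counting does not separate strands, so these are largely the same reads and the gene behind them is uncertain. The last 2 of the 9, named after their values were seen, were Adh1, an alcohol dehydrogenase (log2 fold change -1.86, SE 0.19), and Hsd17b11, a steroid dehydrogenase (-1.81, SE 0.12).

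**Figure D2:**
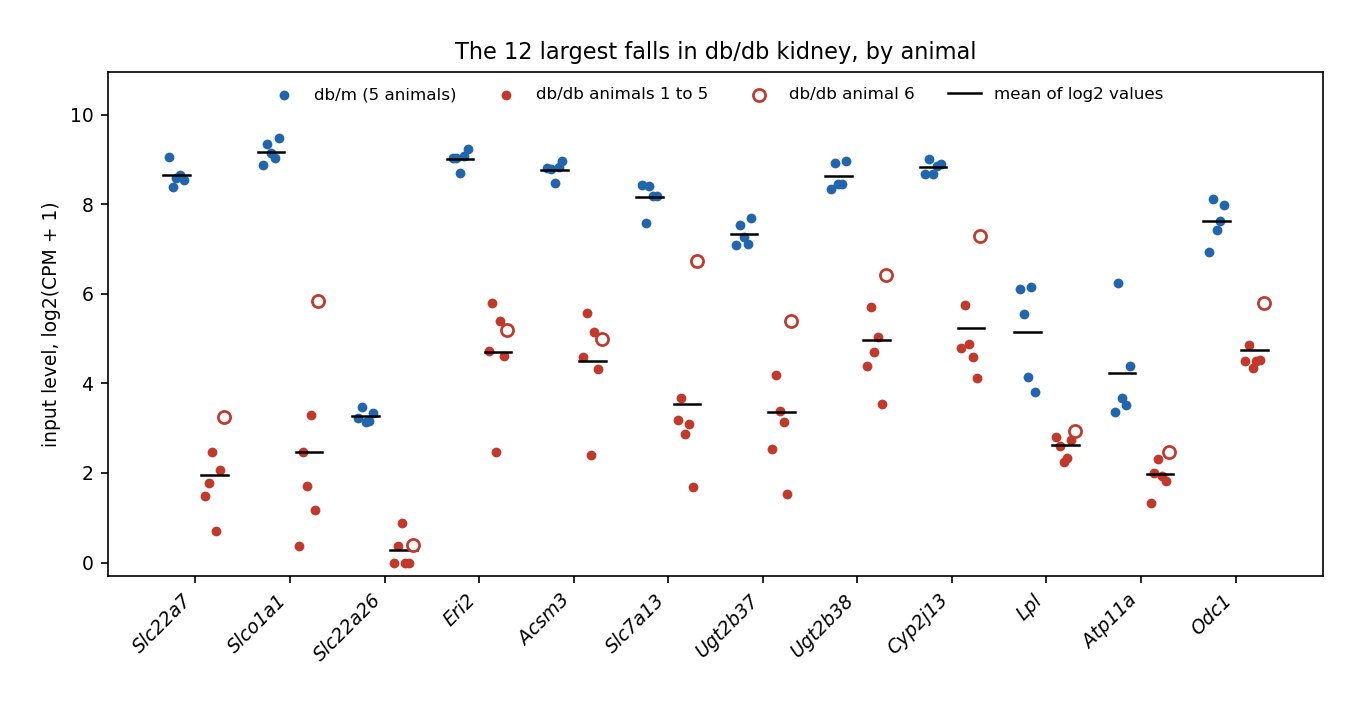
Input level as log2(CPM + 1) (y axis) of the 12 largest falls among genes with a mean of 10 reads or more and no overlap between the genotypes (x axis), by animal. Blue points are the 5 db/m animals, filled red points db/db animals 1 to 5, open red points db/db animal 6 and bars the mean of the log2 values, and animal 6 is the highest db/db animal in 9 of the 12 genes.

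Organic ion transporters fell beyond those of the androgen list. Of 15 measured, 7 fell and 0 rose, against 5.58% and 5.24% of all genes. The largest fall among genes with a mean of 10 reads or more was in Slc22a7, which encodes the organic anion transporter OAT2. Its peak on chromosome 17 from 46432484 to 46433093 stood at 529, 333, 380, 399 and 373 CPM in db/m animals 1 to 5 and at 1.81, 2.4, 4.57, 0.627, 3.16 and 8.49 CPM in db/db animals 1 to 6. The log2 fold change was -6.82 (SE 0.31, adjusted p = 1.3e-10, edgeR), a 113-fold fall. Slc22a26, a related organic anion transporter, held 136 reads in the 5 db/m libraries and 5 reads in the 6 db/db libraries, of which 3 were in animal 3. This gives a ratio of 34.5 (95% interval 14.4 to 108, counting error only), and the fitted log2 fold change was -4.91 with animal 3 and -5.75 without it.

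The transporters that carry most organic ions in the proximal tubule fell less. Slc22a2 (OCT2), which takes up organic cations from the blood side, fell 2.83-fold, from 300 ± 44.1 to 106 ± 40.6 CPM. Slc22a12 (URAT1), which reabsorbs urate, fell 1.99-fold, from 1890 ± 260 to 948 ± 255 CPM. Slc22a6 (OAT1), the main uptake route of organic anions, fell 1.76-fold, from 599 ± 33.4 to 341 ± 78.9 CPM.

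All 4 measured medium-chain acyl-CoA synthetases fell, Acsm3 among them, against 5.58% of all genes. These mitochondrial enzymes activate medium-chain fatty acids and benzoate. Acsm2, also a marker of the proximal tubule, stood at 2093 to 2820 CPM in db/m mice and at 357 to 1058 CPM in db/db mice (log2 fold change -2.01, SE 0.21, adjusted p = 2.85e-06, edgeR). Acsm1 fell 3-fold and Acsm5 1.6-fold. Of 15 measured genes of cytochromes P450, UDP-glucuronosyltransferases, glutathione and sulfotransferases and flavin monooxygenases, 8 fell and 3 rose. The shares over all genes were 5.58% and 5.24%. Of the 15 genes not yet named, Ugt3a1, another glycosyltransferase, fell 2.31-fold. The 3 that rose were Ugt1a6b, Gsta4 and Sult1d1. The Ugt1a6b peak on chromosome 1 from 88218250 to 88218519 lies in the stretch shared by the Ugt1a genes, so it measures the cluster, and it rose from 197 ± 18.9 to 480 ± 112 CPM. Gsta4, which detoxifies the lipid peroxidation product 4-hydroxynonenal, rose 2.37-fold, and Sult1d1, a sulfotransferase, rose 1.92-fold.

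Lpl and Atp11a completed the 12 largest falls. Lpl encodes lipoprotein lipase, which releases fatty acids from circulating triglyceride. It stood at 67.7, 45.7, 16.7, 70.2 and 13 CPM in db/m animals 1 to 5 and at 3.71 to 6.67 CPM in db/db mice (median 5.39). The db/m mice differed widely from each other, and the log2 fold change was -3.03 (SE 0.39, adjusted p = 2.96e-05, edgeR). Lpl is also a marker of adipocytes. Of the other 3 measured adipocyte markers, Adipoq was at most 0.315 CPM in any library, and Ucp1, a gene of brown fat, had 8 of its 10 db/m reads in animal 4 (2.55 CPM). The part of attached fat in the Lpl result was not tested. Atp11a, a phospholipid flippase, fell from 25.2 ± 27.8 to 3.07 ± 1.08 CPM, with 74.4 CPM in db/m animal 2, and its log2 fold change was -3.02 with that animal and -2.05 without it.

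Genes of fatty acid oxidation were the list with the most rises. Of 19 measured genes of fatty acid oxidation and PPARA targets, 14 rose and 2 fell, against 5.24% and 5.58% of all genes, with a median log2 fold change of 0.80. In each fit that left out 1 animal, 12 to 14 of them rose. When only peaks of 1000 bases or less could stand for a gene, 9 rose. The summed level of the 19 genes was not higher in db/db mice, at 6471 to 8964 CPM (median 8341) beside 8340 to 9182 CPM in db/m mice (median 8807). That sum includes Slc27a2, which fell and had a mean of 4185 CPM in db/db and 5836 CPM in db/m mice.

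Fabp1, the fatty acid binding protein of liver and injured or lipid-loaded tubule, had the largest rise among genes with a mean of 10 reads or more whose animals did not overlap. Its peak spans the gene on chromosome 6 from 71199885 to 71203096. Its reads were almost confined to db/db mice, with 16.6, 12.3, 11.7, 7.52, 11.4 and 1.21 CPM in db/db animals 1 to 6 and 0, 0, 0.654, 0 and 0 CPM in db/m animals 1 to 5. In reads this is 201 against 2, a ratio of 79.3 (95% interval 21.7 to 660, counting error only). The fitted log2 fold change was 5.93 (SE 0.77, adjusted p = 3.35e-05, edgeR), and it was 8.04 without db/m animal 3, which held both db/m reads. The promoter of Fabp1 is shown because it holds a direct repeat of the short site bound by PPARA with its partner RXR, and by other nuclear receptors such as HNF4A. These are the 250 bases before its start in RefSeq (GRCm38.p6, plus strand, chr6:71199629-71199878), with the repeat in capitals. The repeat searched was 2 copies of AGGNCA in the same direction with any 1 base between them, and here it is on the minus strand.
Fabp1: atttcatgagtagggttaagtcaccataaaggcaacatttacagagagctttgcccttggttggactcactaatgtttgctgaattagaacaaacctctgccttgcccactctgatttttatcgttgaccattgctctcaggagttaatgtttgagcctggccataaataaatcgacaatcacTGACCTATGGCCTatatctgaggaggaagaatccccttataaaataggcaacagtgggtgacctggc
The repeat lies 67 to 55 bases before the start. Both strands were searched, and 108 of 27025 gene symbols with a promoter (0.400%) hold it in the same 250 bases. Of the 17 genes of the fatty acid list with a promoter in RefSeq, Fabp1 alone did, and no match says only that these letters are not in that window.

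The enzymes that feed and run beta-oxidation rose by smaller factors. Acsl1, which activates long-chain fatty acids, stood at 20.9, 24.6, 19.3, 15 and 25.3 CPM in db/m animals 1 to 5 and at 92.5, 94.7, 85.7, 103, 70.8 and 53.7 CPM in db/db animals 1 to 6. Animal 6 was the lowest db/db mouse (log2 fold change 1.99, SE 0.18, adjusted p = 9.43e-07, edgeR). Eci1, which isomerizes unsaturated acyl-CoAs, rose 3.05-fold, from 76.3 ± 14.8 to 233 ± 63.1 CPM. Pex11a, a peroxisome proliferation factor, rose 2.89-fold. Mgll, which splits monoglycerides, rose 2.39-fold, and Cpt1b, a carnitine palmitoyltransferase, 2.27-fold. Pdk4, the kinase that shuts pyruvate out of the citrate cycle, rested on few reads, 52 in db/db and 1 in db/m mice, a ratio of 41 (95% interval 7.05 to 1652, counting error only).

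The 2 members that fell were Slc27a2 and Acadm. Slc27a2, a fatty acid transporter and acyl-CoA synthetase, fell 1.39-fold, from 5836 ± 415 to 4185 ± 567 CPM. Acadm, the medium-chain acyl-CoA dehydrogenase, fell 1.36-fold, from 786 ± 40.7 to 579 ± 56.8 CPM. The genotypes did not overlap in either gene. Among 8 measured genes of fatty acid and cholesterol synthesis, 0 rose and 2 fell, beside 5.24% and 5.58% of all genes. The 2 were Me1 and Nr1h3, the latter losing its call in 5 of the 11 fits that left out 1 animal. The larger fall was in Me1, malic enzyme, which supplies NADPH for lipid synthesis, from 445 ± 54.8 to 149 ± 21.4 CPM (log2 fold change -1.58, SE 0.13, adjusted p = 1.52e-07, edgeR).

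**Figure D3:**
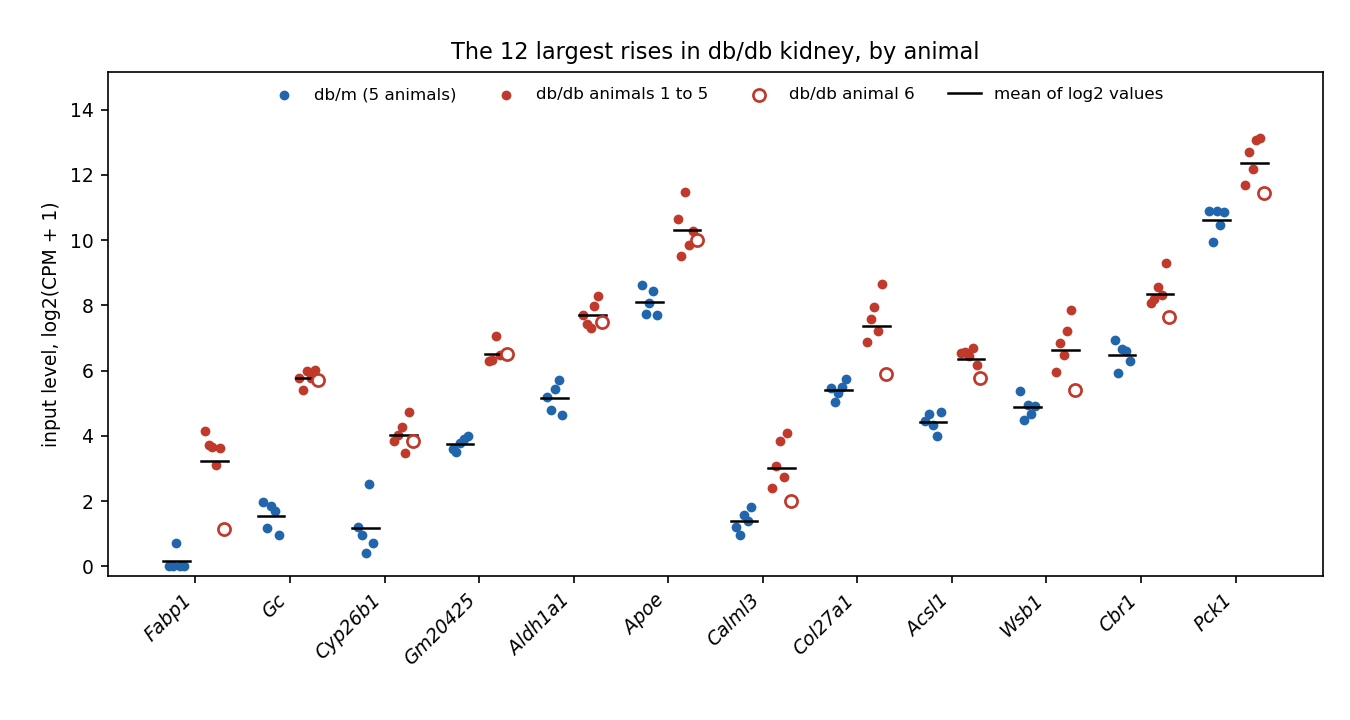
Input level as log2(CPM + 1) (y axis) of the 12 largest rises among genes with a mean of 10 reads or more and no overlap between the genotypes (x axis), by animal. Blue points are the 5 db/m animals, filled red points db/db animals 1 to 5, open red points db/db animal 6 and bars the mean of the log2 values, and animal 6 is the lowest db/db animal for Fabp1, Calml3, Col27a1, Acsl1, Wsb1, Cbr1 and Pck1.

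Genes of glucose metabolism were the second metabolic group in which rises prevailed. Of 20 measured genes of glycolysis and gluconeogenesis, 7 rose and 0 fell, against 5.24% and 5.58% of all genes. The summed level of the 20 was 13392 to 19015 CPM in db/db mice and 7514 to 10222 CPM in db/m mice. Pck1, which encodes the rate-limiting enzyme of gluconeogenesis, had the largest of these rises. Its peak lies on chromosome 2 from 173158287 to 173158586. It stood at 1899, 991, 1915, 1427 and 1882 CPM in db/m animals 1 to 5 and at 3340, 6730, 4686, 8616, 8932 and 2787 CPM in db/db animals 1 to 6. Animals 1 and 6 were the lowest db/db mice (log2 fold change 1.85, SE 0.28, adjusted p = 0.000154, edgeR). The promoter of Pck1 holds a match to the binding site of CREB, the factor through which cyclic AMP induces the gene. The 250 bases before its start in RefSeq (GRCm38.p6, plus strand, chr2:173152823-173153072) are given with the match, TTACGTCA, in capitals.
Pck1: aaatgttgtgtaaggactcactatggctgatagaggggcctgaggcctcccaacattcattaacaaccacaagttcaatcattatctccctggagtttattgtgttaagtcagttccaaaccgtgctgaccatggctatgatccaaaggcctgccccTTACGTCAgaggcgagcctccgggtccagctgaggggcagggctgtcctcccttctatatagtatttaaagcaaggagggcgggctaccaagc
The match lies 93 to 86 bases before the start. In both strands of the same window it occurs in 142 of 27025 gene symbols (0.525%), and in Pck1 alone of the 17 listed genes with a promoter.

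G6pc, which releases free glucose from glucose 6-phosphate, stood at 502 to 1832 CPM in db/db mice (median 887) and at 509 to 635 CPM in db/m mice. The groups overlapped at their low end, and the log2 fold change of 0.86 (SE 0.23, adjusted p = 0.021, edgeR) lost its call without db/m animal 5 (adjusted p = 0.0537). The sodium-glucose cotransporter of the late proximal tubule, Slc5a1 (SGLT1), rose 1.73-fold, from 46.6 ± 11.3 to 80.4 ± 16.7 CPM. That of the early segment, Slc5a2 (SGLT2), stood at 337 CPM in db/db and 377 CPM in db/m mice (log2 fold change -0.16, SE 0.20, adjusted p = 0.654, edgeR). The glycolytic enzymes Hk1 and Pkm rose 1.65-fold and 1.56-fold, whereas Ldha, Ldhb, Tpi1, Aldoa and Gpi1 were not called, with log2 fold changes from -0.09 to 0.28. In the citrate cycle list 1 of 10 genes fell, beside 5.58% of all genes. This was Dld (log2 fold change -0.37), which lost its call in 9 of the 11 fits that left out 1 animal. In the respiratory chain 0 of 33 nuclear-encoded subunits were called by edgeR, 6 had an unadjusted p under 0.05 and DESeq2 called 2. Their median log2 fold change was 0.01.

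Gc had the second largest rise of the 12. It encodes the vitamin D binding protein, which is filtered in the glomerulus and recaptured by the tubule. Its peak of 61 bases on chromosome 5 from 89457749 to 89457809 stood at 54.2, 41.4, 62, 53.9, 63.5 and 51.9 CPM in db/db animals 1 to 6 and at 2.89, 1.26, 2.62, 2.23 and 0.951 CPM in db/m animals 1 to 5. The values of db/db mice were tight and animal 6 lay among them (log2 fold change 4.75, SE 0.23, adjusted p = 2.71e-10, edgeR). Apoe, the apolipoprotein of lipoprotein uptake, rose 4.93-fold, from 285 ± 83 to 1405 ± 779 CPM, with 2872 CPM in db/db animal 3. The peak named Gm20425 on chromosome 9 from 103220912 to 103221032 lies wholly within the gene of transferrin (Trf), the iron carrier, and the 2 cannot be told apart. It rose from 12.7 ± 1.87 to 92.4 ± 20.2 CPM.

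Of 11 measured genes of retinoid handling, 3 rose and 0 fell, against 5.24% and 5.58% of all genes. Aldh1a1, which oxidizes retinal to retinoic acid, stood at 209, 170, 156, 253, 310 and 177 CPM in db/db animals 1 to 6 and at 24.1 to 51.1 CPM in db/m mice (median 35.9). The log2 fold change was 2.56 (SE 0.22, adjusted p = 3.39e-07, edgeR). Cyp26b1, which breaks down retinoic acid, rose from 1.6 ± 1.82 to 16 ± 5.44 CPM. In db/m animal 4 it was 4.79 CPM and in the other db/m mice at most 1.28 CPM, and the log2 fold change was 3.29 with animal 4 and 4.25 without it. The third call, Rdh16, a retinol dehydrogenase, had a log2 fold change of 0.64 and lost its call in 5 of the 11 fits that left out 1 animal. The retinoid receptors Rxra and Rxrb had log2 fold changes of -0.02 and -0.01.

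The other 4 of the 12 largest rises stand in none of the gene lists used here. Cbr1, a carbonyl reductase of prostaglandins and quinones, rose 3.8-fold, from 91.2 ± 24 to 347 ± 150 CPM. Col27a1, a fibrillar collagen, rose 4.59-fold, and Wsb1, a subunit of a ubiquitin ligase, rose 3.92-fold. In both, db/db animal 6 was the lowest db/db mouse, at 58.2 and 41.2 CPM beside db/m maxima of 52 and 40.4 CPM. Both peaks also lie inside other annotated genes, Gm52743 and Gm30470. Calml3, a calmodulin-like protein of epithelia, rose from 1.66 ± 0.615 to 8.32 ± 5.28 CPM.

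Of 5 measured genes that glucocorticoids induce, 3 rose and 0 fell, against 5.24% and 5.58% of all genes. The median log2 fold change of the 5 was 1.12. Fkbp5, a chaperone that feeds back on the glucocorticoid receptor, stood at 165, 207, 300, 339, 315 and 169 CPM in db/db animals 1 to 6 and at 70 to 122 CPM in db/m mice. The genotypes did not overlap, and animals 1 and 6 were the lowest db/db mice (log2 fold change 1.41, SE 0.20, adjusted p = 8.73e-05, edgeR). The third call, Pdk4, is described above. Per1, a clock gene that is also a direct glucocorticoid target, rose 2.18-fold, from 18 ± 6.37 to 39.2 ± 8.45 CPM. It was the only 1 of 4 measured clock genes that was called, and the time of day of collection is not given in the sources used here.

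Of the 13 measured immediate early and heat shock genes, 4 fell and 2 rose, against 5.58% and 5.24% of all genes. All 4 that fell were chaperones. Among the falls, Hspe1 lost its call in 9 of the 11 fits that left out 1 animal. Hsp90ab1, a cytosolic HSP90 chaperone, stood at 6149, 6278, 7122, 6775 and 5820 CPM in db/m animals 1 to 5 and at 3453, 3696, 3532, 3859, 3578 and 4229 CPM in db/db animals 1 to 6. The spread within each genotype was small, no animals overlapped, and the log2 fold change was -0.79 (SE 0.11, adjusted p = 5.93e-05, edgeR). Hsp90aa1, the inducible HSP90, fell 1.9-fold, and Hspd1, the mitochondrial HSP60, fell 1.71-fold. The 2 that rose were Ier5 and Fosl2, a subunit of AP-1, from 7.66 ± 2.64 to 25.4 ± 11.1 CPM in the latter. With peaks of 1000 bases or less, other peaks stood for Fosl2 and Hspe1, and neither was called (adjusted p = 0.493 and 0.893, edgeR). Among 17 measured genes of the unfolded protein and integrated stress response, 4 fell and 3 rose, against 5.58% and 5.24% of all genes. With 1 animal left out 2 to 5 of the 17 fell and 1 to 3 rose. The rises of Atf5 and Ddit3 were lost in 8 and 3 of those 11 fits, and the falls of Pdia6 and Hsp90b1 in 5 and 4. The falls were in chaperones of the endoplasmic reticulum such as Calr, which fell 1.66-fold, and Canx, which fell 1.56-fold but was not called with a peak of 1000 bases or less (adjusted p = 0.127, edgeR). Sesn2, a stress-induced inhibitor of mTORC1 signalling, rose from 4.61 ± 1.66 to 11 ± 0.638 CPM.

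**Figure D4:**
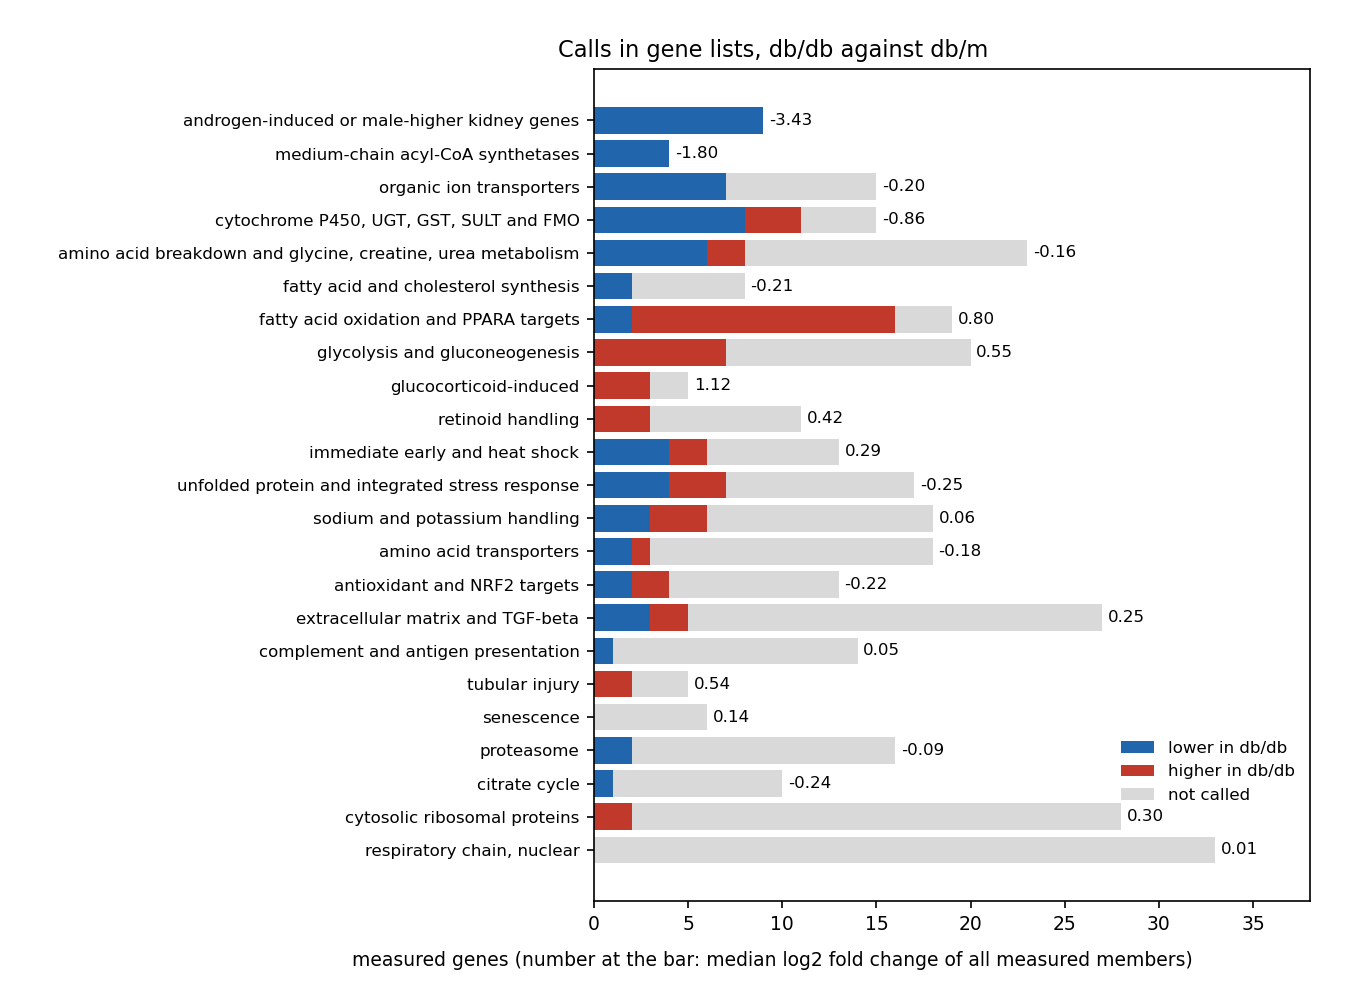
Number of measured genes per list (x axis) that fell (blue), rose (red) or were not called (grey) in db/db against db/m mice, with the median log2 fold change of all measured members at the end of each bar. All 9 androgen-induced or male-higher genes fell, 14 of 19 genes of fatty acid oxidation rose, and 0 of 33 respiratory chain genes were called.

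Amino acid metabolism moved in both directions. Of 23 measured genes of amino acid breakdown and of glycine, creatine and urea metabolism, 6 fell and 2 rose. With 1 animal left out 4 to 9 fell, most without db/db animal 6. Gldc, the glycine-splitting subunit of the glycine cleavage system, stood at 136, 151, 196, 218, 143 and 86.1 CPM in db/db animals 1 to 6 and at 39.9 to 54.2 CPM in db/m mice. The genotypes did not overlap (log2 fold change 1.80, SE 0.19, adjusted p = 5.05e-06, edgeR). Glud1, the glutamate dehydrogenase that yields ammonia, rose 2.12-fold, with 131 CPM in animal 6 and 227 to 387 CPM in the other db/db mice, beside 113 to 178 CPM in db/m mice. Ivd, which acts on leucine, fell 2.83-fold, and Cbs, which condenses homocysteine with serine, fell 1.86-fold. Among 18 measured amino acid transporters 1 rose, Slc6a6 for taurine (1.91-fold), and 2 fell, Slc7a13 as described above and Slc3a1, which lost its call in 9 of the 11 fits that left out 1 animal. All of these transporter calls were among the 9 members with a mean of 10 reads or more. Of all genes 10.8% were called, and 16.4% of those at that depth.

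Of 18 measured genes of salt and phosphate transport 3 rose and 3 fell, beside 10.8% called among all genes and 16.4% among those with a mean of 10 reads or more. Of the falls, Pdzk1 and Slc9a3r1, scaffolds of the brush border, lost their calls in 7 and 4 of the 11 fits that left out 1 animal. Slc34a1 (NaPi-IIa), the main phosphate transporter of the proximal tubule, stood at 164 to 228 CPM in db/m mice and at 124, 56.6, 54.3, 89.3, 54.4 and 191 CPM in db/db animals 1 to 6. Animal 6 alone lay in the db/m range, and the log2 fold change was -1.05 (SE 0.27, adjusted p = 0.0141, edgeR) with it and -1.37 without it. Slc4a4, the basolateral bicarbonate exit of the proximal tubule, rose 1.44-fold, but the peak of this gene with the most IP reads gave a log2 fold change of -0.01. Lrp2 (megalin), the endocytic receptor that recaptures filtered proteins, fell 1.86-fold, from 614 ± 75 to 330 ± 114 CPM. Aqp2, the vasopressin-regulated water channel of the collecting duct, rose 2.61-fold, from 17 ± 4.6 to 44.3 ± 9.36 CPM, and Aqp4, on the other face of the same cells, fell 2.49-fold. Without db/m animal 2, which had 62.7 CPM of Aqp4, its log2 fold change was -1.01 in place of -1.32. Egf, which is made in the thick ascending limb, fell 2.08-fold, from 660 ± 143 to 317 ± 107 CPM.

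Marker lists of cell types differed in their calls. The 3 measured markers of the distal convoluted tubule and the 3 of the intercalated cell had 0 calls by edgeR. Their median log2 fold changes were 0.05 and 0.01, and DESeq2 called 1 intercalated cell marker. Markers of leukocytes and of fibroblasts and mural cells also had 0 calls, but most of them had a mean under 10 reads. Of 14 measured proximal tubule markers, 6 fell and 2 rose, against 5.58% and 5.24% of all genes. The summed level of the 14 was 9190 to 11881 CPM in db/db and 13972 to 15427 CPM in db/m mice. The members did not move together, and beside Acsm2 at -2.01 on the log2 scale, Hnf4a, a defining factor of these cells, stood at 396 CPM in db/db and 409 CPM in db/m mice (log2 fold change -0.04, SE 0.13). Podocyte markers summed to 155 to 260 CPM in db/db and 131 to 149 CPM in db/m mice. Of the 9 measured, 3 rose and 0 fell, against 5.24% and 5.58% of all genes. Synpo, 1 of the 3, lost its call in 8 of the 11 fits that left out 1 animal. Cdkn1c, a cell cycle inhibitor of mature podocytes, rose 2.33-fold and Nes, an intermediate filament, 1.63-fold. The Cdkn1c peak overlaps that of another gene, Gm44732, so the gene behind its reads is uncertain. Nphs1 (nephrin) of the slit diaphragm had a log2 fold change of 0.42 (SE 0.18) and was not called. Endothelial markers summed to 417 to 745 CPM in db/db and 309 to 403 CPM in db/m mice. This rested on Plvap, the diaphragm protein of fenestrated endothelium, which rose 1.96-fold, while Kdr, a receptor of VEGF, had a log2 fold change of -0.40 (SE 0.16). The part of tissue composition in the results above was not tested.

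**Figure D5:**
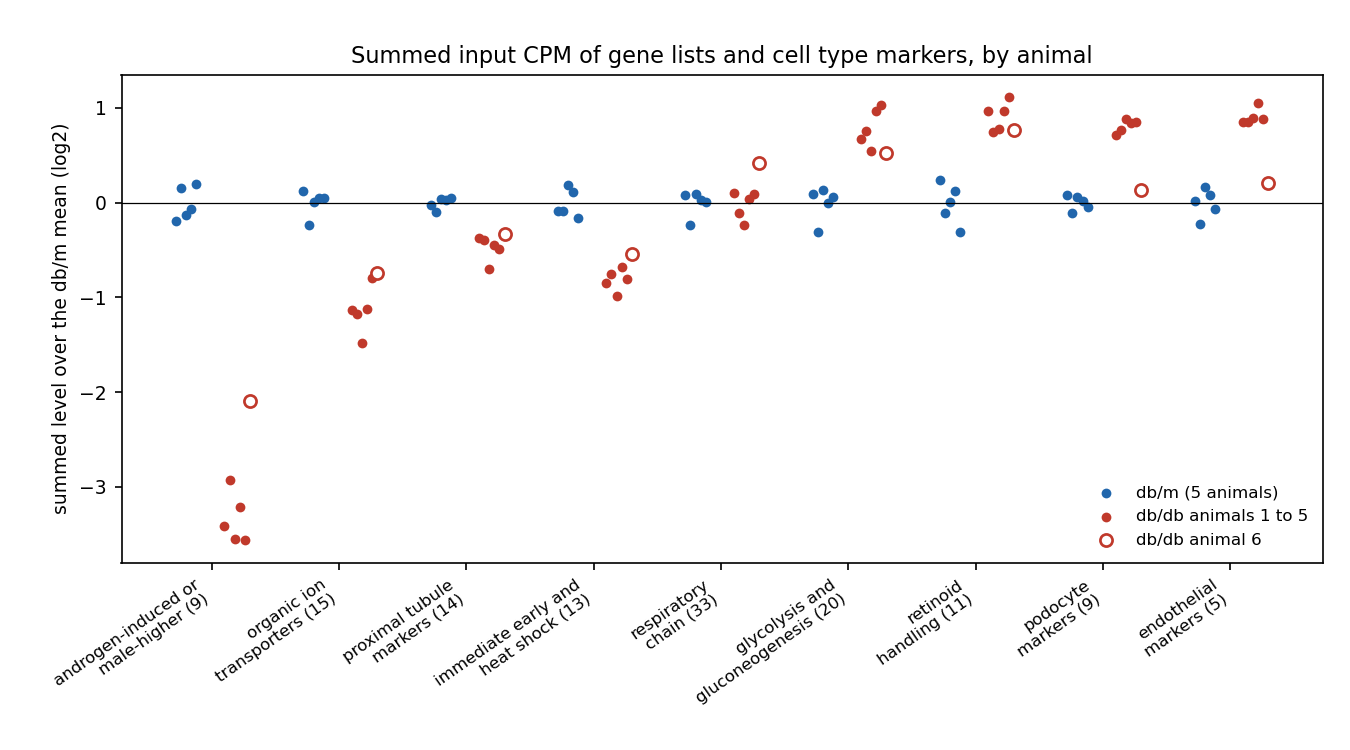
Summed input CPM of gene lists and cell type markers (x axis, number of measured genes in brackets) relative to the mean of the db/m animals (y axis, log2), with 1 point per animal. Blue points are db/m animals, filled red points db/db animals 1 to 5 and open red points db/db animal 6, whose podocyte and endothelial sums, 155 and 417 CPM, are the lowest of the db/db mice.

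Genes of matrix, injury, senescence and immunity, processes usually followed in diabetic kidney, are given here by their counts, to be read against the 10.8% called among all genes. Of 27 measured genes of extracellular matrix and TGF-beta signalling, 3 fell and 2 rose, beside 5.58% and 5.24% of all genes. Col4a3 and Col4a4, chains of the mature glomerular basement membrane, fell 2.29-fold and 1.7-fold, but db/m animal 2 had 324 and 240 CPM of them where the other db/m mice had at most 114 and 136 CPM. Without that animal the log2 fold change of Col4a3 was -0.66 in place of -1.19 and lost its call, as it did without db/db animals 1, 4 or 5, and that of Col4a4 was -0.55 in place of -0.76. Timp3, a matrix-bound inhibitor of metalloproteinases, fell 1.68-fold, and Lamb2, a laminin of the same membrane, rose 1.69-fold. Grem1, a BMP antagonist, held 49 reads in db/db and 1 in db/m mice, a ratio of 38.7 (95% interval 6.62 to 1558, counting error only). Of 5 measured tubular injury genes 2 rose, among them Krt8, a keratin of simple epithelia, by 1.45-fold, and 4 rose without db/db animal 6. The other call, Sox4, was lost in 8 of the 11 fits that left out 1 animal. Of 20 listed senescence genes 6 were measured, 2 of them with a mean under 10 reads. Of these 6, 0 were called by edgeR or DESeq2 and 1 had an unadjusted p under 0.05, with a median log2 fold change of 0.14. Cdkn1a, Cdkn2a and Trp53 had no peak, so the counts do not cover these central senescence genes. Of 14 genes of complement and antigen presentation 1 fell, Cfb, by 1.46-fold, and of 9 insulin and growth factor genes 1 rose, Insr, the insulin receptor, by 1.68-fold, both shares close to that of all genes. Nfe2l2, which encodes NRF2, rose 1.67-fold. Of the 13 measured genes of its list 2 rose and 2 fell, Me1 among the latter, and the calls of Tkt and Taldo1 were each lost in 9 of the 11 fits that left out 1 animal.

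Cytosolic ribosomal proteins were shifted in 1 direction by small amounts that mostly did not pass the test. All 26 members with a mean of 10 reads or more had a positive log2 fold change, 0.02 to 0.53, against 1471 of 2953 genes at that depth. The summed level of the 28 members was 8744 CPM in db/m animal 2, 11595 to 13694 CPM in the other db/m mice and 12182 to 17631 CPM in db/db mice, so the genotypes overlapped. Of the 28 measured, 2 were called, Rps2 and Rpl5, and 10 were called without TMM scaling. The largest fitted rise among genes with a mean of 10 reads or more, Saa3, an acute phase protein named after its values were seen, rested on 1 animal. It stood at 99.7 CPM in db/db animal 3 and at most 1.58 CPM in every other mouse, and its log2 fold change was 6.70 with that animal and 1.83 without it (adjusted p = 0.33, edgeR).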

How the data were processed

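Kidney RNA was extracted with TRIzol, and poly(A) mRNA was broken into short fragments and sequenced as read pairs on a DNBSEQ-T7, per the study's methods. The counts in the table deposited by the authors are whole reads per ac4C peak and library, not normalized. The aligner, peak caller and counting tool are not given in the sources used here. GRCm38 is named in the submitters' processing notes. The table's starts count from 0 (103 peaks match a RefSeq gene start after adding 1, 8 as given), and positions here count from 1. The counting does not use strand. The table also holds the authors' fold enrichment and score, peak p-values and a log2 change between the genotypes with its p-values. These deposited columns were not used. Per-sample columns that belong to no sample numbered 0.

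Groups came from the sample titles. Input counts of all 9857 peaks were fitted in R 4.3.3 with edgeR 4.0.16 (TMM, glmQLFit, glmQLFTest, genotype as the only term), with p-values adjusted over all peaks and then read for 1 peak per gene. SE is the log2 fold change divided by the root of F. Folds are from that fit. On simulated counts, 21 of 50 peaks changed 1.5-fold and 44 of 50 changed 2-fold were recovered. So were 50 of 50 changed 4-fold and 49 of 50 changed to 0.25-fold, with 13 false calls among 9657 unchanged peaks. The changed peaks all had a mean of 10 reads or more, so recovery of shallower genes was not tested. Simulated counts varied independently, with no animal set apart as db/db animal 6 was. Named genes were the 12 largest rises and falls over 2-fold with a mean of at least 10 reads and no overlap, up to 6 called members per list (all where 5 or fewer), and up to 3 markers per cell type. Exceptions are stated. The genes and lists were chosen with earlier results of these data known. Lists are described by counts, with no set test. Alternatives were DESeq2 1.42.0, no TMM, 2 filters on low counts, 3 choices of peak, each animal left out and animal number as a block. Replicates differed by more than sampling noise (lowest chi-square per degree of freedom 3.51). Whether cage or batch was shared is not given, so p-values measure the spread between these animals. Promoters are from RefSeq. Exon positions were not assessed. PCR copies were not separated, so intervals and limits cover counting error only. Some listed genes are not reported here.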

Additional observations from a re-analysis of the deposited data

Results flagged for a closer look

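In 174 groups of 5 or 6 animals of 1 genotype, 29 had an animal set far apart from the rest (Dixon's test at 95%). About 8.7 are given by chance if values are normally distributed. CPM values with many zeros are not, and genes of the same animals can move together, so an excess over 8.7 was not tested. Of the 29 flags, 8 were in db/db animal 6 and 7 in db/m animal 2.

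Animal 6 of the db/db mice was the highest of its group in 6 falling genes, with 56.1 CPM of Slco1a1, 106 of Slc7a13, 155 of Cyp2j13, 54.3 of Odc1, 103 of Adh1 and 183 of Slc22a2. It was the lowest of its group in 2 rising genes, with 339 CPM of Plvap and 40.6 of Lamb2. In these 8 genes it lay on the side of the db/m mice. Animal 2 of the db/m mice was the highest of its group in Atp11a (74.4 CPM), Aqp4 (62.7), Col4a3 (324) and Col4a4 (240), and the lowest in Slc22a12 (1443 CPM), Acsm2 (2093) and Ugt1a6b (164).

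The other flags were spread over animals. In db/db mice they were Gm20425 (132 CPM), Slc22a26 (0.857) and Saa3 (99.7) in animal 3, Pex11a (68.9), Pdk4 (7.27) and Rpl5 (502) in animal 5, Gsta4 (246) in animal 4 and Mgll (13) in animal 1, each the highest of the group. In db/m mice they were Cyp26b1 (4.79 CPM) and Saa3 (0.638) in animal 4, Cdkn1c (45.9) and Pdk4 (0.321) in animal 1, and Fabp1 (0.654) and Grem1 (0.327) in animal 3. The values under 1 CPM are 1 to 3 reads.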

How the results depend on the processing

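The counts of 257 genes that rose and 274 that fell, and of 105 in each direction over 2-fold, stayed within 1.5 times under DESeq2, no TMM, both filters on low counts, 1 peak per gene in the fit and the peak with the most IP reads. Without TMM the split was 358 up and 226 down. Unadjusted p-values gave 618 up and 591 down, and 228 and 205 over 2-fold. With peaks of 1000 bases or less, 197 rose and 175 fell, fewer genes have such a peak, and 4 of 90 named genes lost their call (Fosl2, Canx, Hspe1 and Psmd2). With each animal left out in turn, 183 to 313 genes rose and 215 to 354 fell, and 88 to 127 and 90 to 136 over 2-fold. All 4 highest counts came without db/db animal 6. Of the 531 called genes, 514 were also called by DESeq2 and 483 without TMM. Of 110 named and called genes, the fits that left out 1 animal kept 92 to 109. Slc4a4 reversed with the peak with the most IP reads (-0.01), and the cause was not tested. Replicate numbers were shared by animals 1 to 5, but the deviations of same-numbered animals correlated above 0.1 in 2 of the 5 pairs only (r = 0.32, 0.45, -0.33, -0.03 and -0.01), and 2 of 5 correlated best with their own number, so the numbers were not taken as pairs. With that number as a block 367 genes rose and 452 fell, and without it the same 10 animals gave 313 and 354. Depth limits the 1956 genes with a mean under 10 reads.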
